A study of Mus musculus with 6 samples.

Results

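Collagens of types VI, VIII, XII, XIV and XVI are non-fibrillar collagens of connective tissue, and some of them organise, coat or link the large collagen fibrils. The 10 genes described here were taken from the count table by their gene names, and all 10 were among its 17572 protein-coding genes. They comprise 5 chains of type VI (Col6a1, Col6a2, Col6a3, Col6a5 and Col6a6), the 3 fibril-associated collagens Col12a1, Col14a1 and Col16a1, and the chains Col8a1 and Col8a2 of the short-chain collagen type VIII. RNA sequencing had been done on skin scars of wild-type (WT) C57BL/6 mice, 2 weeks after the operation. In the stretched group, hypertrophic scars (HS, n = 3 libraries) formed at upper back wounds whose edges had been stitched under tension to the rib cage. In the control group, normal scars (NS, n = 3 libraries) grew on the lower back after closure in place with no tension. The labels give neither the age of the mice nor whether each library is a different mouse, so every p-value reflects only the variation among these libraries, part of which may be technical. Site on the back and tension changed together and cannot be told apart. The table gave 20375395 to 27859889 counts per library.

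Type VI collagen assembles from the Col6a1 and Col6a2 chains together with a longer chain (Col6a3, or the related Col6a5 or Col6a6) into beaded microfilaments that link cells to the surrounding matrix in dermis and muscle. The fibril-associated collagens have interrupted triple helices, and type XII and type XIV lie on the surface of type I fibrils, where they affect fibril spacing and diameter. Type VIII collagen forms open lattices in vessel walls and in the basement membrane of the corneal endothelium, and is made by smooth muscle and endothelial cells after injury.

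Of the 10 collagens, 8 were higher in HS, none was lower, and Col16a1 and Col8a2 did not pass the test. All 5 type VI chains rose, as did Col12a1, Col14a1 and Col8a1, by 2.22-fold to 3.43-fold. Calls are those of edgeR's quasi-likelihood method fitted to all 14513 genes that passed a filter on low counts, at a Benjamini-Hochberg adjusted p below 0.05. All 10 genes passed that filter. Of all tested genes, 8.85% were called, 6.33% higher in HS and 2.51% lower. An unadjusted p below 0.05 was found for all 10 genes and for 26.3% of all tested genes. In the other methods applied to all libraries, DESeq2 called 9 of the 10 (16.8% of all tested genes) and limma-voom 7 (6.51%). The median log2 fold change of the 10 collagens was 1.44, against -0.01 over all tested genes. The 3 HS values lay above the 3 NS values for 9 of the 10 genes, against 17.2% of all tested genes; the exception was Col16a1. HS replicate 2 had the lowest HS value in all 10 genes, while HS replicate 1 had the highest in 7 and HS replicate 3 in 3. HS replicate 2 also lay nearest to NS on the first principal component of all tested genes, with a score of 5.53 against 51.0 and 34.4 in the other HS libraries and -31.6 to -28.9 in NS.

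These calls depended on single libraries. Without HS replicate 1, 6 of the 10 collagens were called, against 7.40% of all tested genes, and without HS replicate 2, 9 were called, against 22.0%. Without HS replicate 3, NS replicate 1, NS replicate 2 or NS replicate 3, edgeR called none of the 10, and 1.01%, 0.635%, 0.169% and 0.326% of all tested genes. An unadjusted p below 0.05 was found for 9, 9, 10 and 9 of the 10 in these 4 fits, against 19.5%, 20.5%, 19.8% and 22.2% of all tested genes, and for 9 and 10 of the 10 without HS replicate 1 or HS replicate 2, against 22.6% and 33.5%. The log2 fold change was above 0 for all 10 genes in each of these 6 fits. The median over the 10 genes ranged from 1.21 without HS replicate 1 to 1.64 without HS replicate 2.

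**Figure D1:**
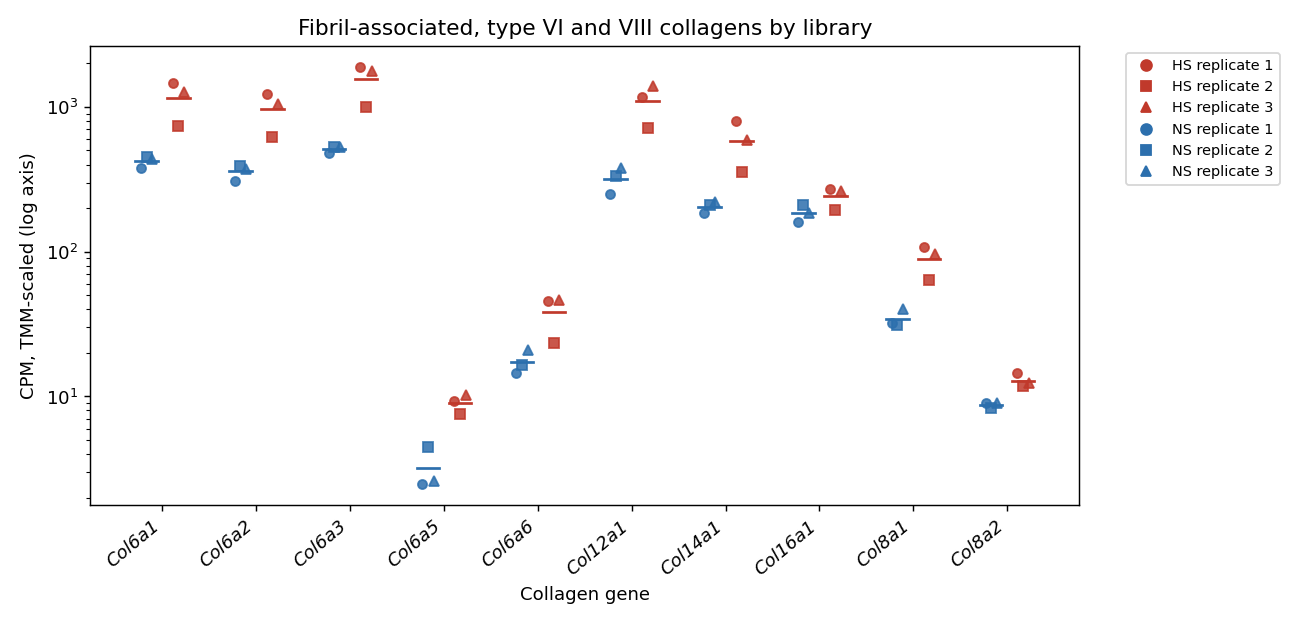
Expression of the 10 collagens in each library, in CPM (counts relative to the TMM-scaled library total, log axis). Symbols are single libraries and lines are group means (n = 3); HS lies above NS without overlap for all genes but Col16a1, and the HS replicate 2 squares are the lowest HS values throughout.

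The main chains of type VI collagen rose together. Col6a1 stood at 1454, 742 and 1268 CPM (counts relative to the library total, scaled by TMM) in HS replicates 1 to 3 and at 380, 449 and 439 CPM in NS replicates 1 to 3. The lowest HS library was thus 742 CPM and the highest NS library 449 CPM, and the mean was 2.73-fold higher in HS (log2 fold change 1.45 ± 0.234, SE, edgeR adjusted p = 0.0168). Col6a2, its partner chain, stood at 1231, 617 and 1041 CPM in HS and at 309, 391 and 375 CPM in NS. This was a 2.69-fold rise with no overlap between the groups (log2 fold change 1.43 ± 0.246, SE, edgeR adjusted p = 0.0202). Col6a3, the long chain whose C-terminal fragment is released as endotrophin, stood at 1893, 996 and 1776 CPM in HS and at 482, 526 and 526 CPM in NS. Its NS values differed little, with a mean of 511 ± 25.5 CPM (SD, n = 3), and the rise was 3.04-fold (log2 fold change 1.60 ± 0.226, SE, edgeR adjusted p = 0.0125).

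Col6a1 (chromosome 10, 76708792 to 76726168, minus strand) and Col6a2 (chromosome 10, 76595762 to 76623630, minus strand) lie 85162 bp apart, and Col6a3 lies on chromosome 1 (90765923 to 90843971, minus strand). The nearest tested genes on either side, Lss and Pcbp3, had log2 fold changes of -0.72 ± 0.108 (SE, edgeR adjusted p = 0.0109) and 0.13 ± 0.244 (adjusted p = 0.774). The bases just before the annotated start of each gene are shown because these 3 chains changed together, in lower case with motif matches in capitals (RefSeq windows, GRCm38.p6, 5' to 3' on the gene's strand; the Col6a1 stretch is shorter because the annotated gene begins earlier).

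Col6a1 promoter, chr10:76726169-76726294, minus strand: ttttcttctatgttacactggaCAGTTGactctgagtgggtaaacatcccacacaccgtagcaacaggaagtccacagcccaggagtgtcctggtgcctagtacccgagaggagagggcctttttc

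Col6a2 promoter, chr10:76623631-76623880, minus strand: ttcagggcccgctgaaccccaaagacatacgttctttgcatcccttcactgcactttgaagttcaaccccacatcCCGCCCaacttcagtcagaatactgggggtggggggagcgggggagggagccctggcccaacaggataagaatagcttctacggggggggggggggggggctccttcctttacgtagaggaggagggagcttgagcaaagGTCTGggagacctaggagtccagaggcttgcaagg

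Col6a3 promoter, chr1:90843972-90844221, minus strand: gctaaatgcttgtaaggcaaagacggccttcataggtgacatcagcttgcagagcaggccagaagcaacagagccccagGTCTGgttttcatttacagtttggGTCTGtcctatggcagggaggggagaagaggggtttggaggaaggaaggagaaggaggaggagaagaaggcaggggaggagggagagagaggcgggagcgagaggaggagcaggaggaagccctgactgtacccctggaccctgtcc

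Short motifs were searched on both strands in windows of 250 bases before the RefSeq start. They were the TATA box (TATAAA), found in 12.4% of all 32851 windows, the CCAAT box (33.8%) and the GC box (GGGCGG, 32.7%). The AP-1 motif, TGANTCA, occurred in 6.75% of windows, the SMAD element, CAGAC, in 42.2%, and the palindromic SMAD box, GTCTAGAC, in 0.167%. The TEAD motif, GGAATG, occurred in 12.6% and the E-box, CANNTG, in 66.2%. For the CArG box of serum response factor, only 1 fixed sequence was searched, and it occurred in 0.0609% of windows. Other forms of that box were not searched. The Col6a3 window held the SMAD element at 2 places, in its reverse complement, and the Col6a2 window shown held it once beside 1 GC box. A further Col6a2 window, from an alternative start inside the annotated gene, held 3 GC boxes and 1 TEAD motif. The Col6a1 window held 1 E-box, in capitals above, and 1 AP-1 motif, which lies within the annotated gene and is not printed. None of these windows held a TATA box or a CCAAT box. Some motifs can overlap one another. The matches describe these letters only.

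The other long chains of type VI were rarer, and both rose. Col6a5, known in human skin as the collagen once named type XXIX, stood at 9.33, 7.53 and 10.3 CPM in HS and at 2.49, 4.47 and 2.60 CPM in NS. The groups did not overlap, and the rise was 2.84-fold (log2 fold change 1.51 ± 0.288, SE, edgeR adjusted p = 0.0198). Col6a6 stood at 46.0, 23.3 and 46.4 CPM in HS and at 14.6, 16.6 and 20.9 CPM in NS. HS replicate 2 exceeded the highest NS library by only a little, and the rise was 2.22-fold (log2 fold change 1.15 ± 0.273, SE, edgeR adjusted p = 0.0417). With limma-voom, Col6a6 was not called (adjusted p = 0.0624; the range over all alternatives was 6.52e-05 to 0.154). Exons of Col6a6 overlap 63 bp of an unclassified gene on the opposite strand, and the sources used here do not say whether counting used the strand.

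Col6a6, Col6a5 and Col6a4 lie side by side on mouse chromosome 9 (105687809 to 105828160, 105856078 to 105960643 and 105989454 to 106096783, all on the minus strand), with gaps of 27918 and 28811 bp. Col6a4, a related long chain that is not one of the 10 genes, had low counts (62, 13 and 41 in HS, 11, 10 and 12 in NS). It stood at 2.33, 0.579 and 1.501 CPM in HS and 0.481, 0.480 and 0.480 CPM in NS. Col6a4 passed the filter but was not called (log2 fold change 1.61 ± 0.615, SE, edgeR adjusted p = 0.132). The tested genes next to the cluster, Pik3r4 and Glyctk, were at log2 fold changes of 0.18 and -0.35 and were not called (adjusted p = 0.287 and adjusted p = 0.520).

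Per kilobase of annotated exon, the 10 genes spanned a wide range of levels. In NS, Col6a1 had the highest level at 96.6 ± 8.52 CPM per kb (SD, n = 3), followed by Col6a2 at 43.0 ± 5.22 and Col6a3 at 42.7 ± 2.13 CPM per kb, which differed by less than the sum of their SDs, the measure used for neighbours in this order. Col14a1 (29.2 ± 2.44), Col16a1 (27.5 ± 3.63) and Col12a1 (21.0 ± 4.20 CPM per kb) came next, and each differed from its neighbour in that trio by less than this sum. The lowest were Col8a1 at 4.41 ± 0.600, Col8a2 at 1.95 ± 0.0837, Col6a6 at 1.89 ± 0.352 and Col6a5 at 0.338 ± 0.118 CPM per kb, with Col8a2 and Col6a6 within it. In HS the order was Col6a1 (264 ± 84.3), Col6a3 (130 ± 40.8), Col6a2 (116 ± 37.8), Col14a1 (82.7 ± 31.4), Col12a1 (72.2 ± 23.0), Col16a1 (35.9 ± 6.15), Col8a1 (11.4 ± 2.94), Col6a6 (4.21 ± 1.44), Col8a2 (2.86 ± 0.324) and Col6a5 (0.960 ± 0.147 CPM per kb). Neighbours within that measure in HS were Col6a3 and Col6a2, Col6a2 and Col14a1, Col14a1 and Col12a1, and Col6a6 and Col8a2. The measure leaves out that all genes were read in the same libraries. Compared within libraries, Col6a3 lay above Col6a2, and Col6a2 above Col14a1, in every HS library, as did Col16a1 above Col12a1 in every NS library. The order of the other close neighbours varied between libraries. Exon lengths are unions over annotated transcripts, so a gene with long alternative exons, such as Col6a2 (8326 bp), gets a lower level per kb than one with short ones, such as Col6a1 (4380 bp).

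Of the fibril-associated collagens, Col12a1 and Col14a1 rose and Col16a1 did not pass the test. Col12a1 (chromosome 9, 79598991 to 79718831), which encodes the fibril-surface collagen of dermis, tendon and fascia, stood at 1178, 716 and 1403 CPM in HS and at 251, 332 and 377 CPM in NS. Its HS values were all above its NS values, and its rise of 3.43-fold was the largest of the 10 genes (log2 fold change 1.78 ± 0.267, SE, edgeR adjusted p = 0.0159). Col14a1 (chromosome 15, 55307750 to 55520803), which regulates early fibril growth, stood at 795, 356 and 589 CPM in HS and at 186, 209 and 219 CPM in NS. The groups did not overlap, and the rise was 2.83-fold (log2 fold change 1.503 ± 0.276, SE, edgeR adjusted p = 0.0266). Col16a1 (chromosome 4, 130047840 to 130099283), which in human skin occurs with fibrillin microfibrils near the dermal-epidermal junction, stood at 270.1, 195 and 262 CPM in HS and at 160.3, 209 and 186 CPM in NS. HS replicate 2 lay below NS replicate 2, and the 1.31-fold difference did not pass (log2 fold change 0.39 ± 0.144, SE, edgeR adjusted p = 0.128). Without HS replicate 2, Col16a1 passed, at a log2 fold change of 0.52 (adjusted p = 0.00396; the range over all alternatives was 0.00396 to 0.347).

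Of the type VIII chains, Col8a1 passed the test and Col8a2 did not. The ratio of Col8a1 to Col8a2 did not overlap between the groups (exact permutation p = 0.1). With 3 against 3 libraries that is the smallest p possible, so this test could not decide whether the chains changed by different amounts. Col8a1 (chromosome 16, 57624258 to 57754737) stood at 108, 63.7 and 97.0 CPM in HS and at 32.3, 31.4 and 39.9 CPM in NS, without overlap. It rose 2.59-fold and had the smallest p of the 10 genes (log2 fold change 1.37 ± 0.198, SE, edgeR adjusted p = 0.0124). Col8a2 (chromosome 4, 126286793 to 126314330), the partner chain, stood at 14.5, 11.7 and 12.3 CPM in HS and at 8.96, 8.31 and 8.96 CPM in NS. Its groups did not overlap either, but the 1.47-fold difference did not pass (log2 fold change 0.55 ± 0.172, SE, edgeR adjusted p = 0.0779). DESeq2 called it (adjusted p = 0.0245), and over all alternatives its adjusted p lay between 0.0245 and 0.212.

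**Figure D2:**
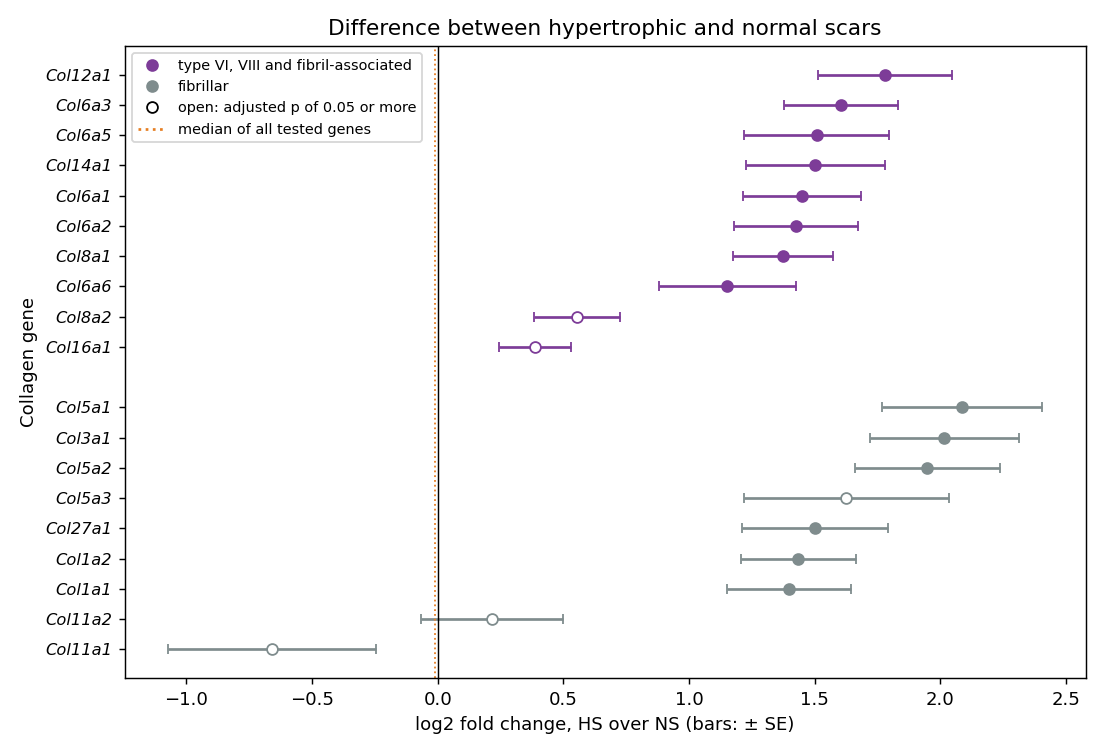
Log2 fold change of HS over NS with its SE for the 10 collagens (purple) and for the 9 tested fibrillar collagens (grey); open symbols did not pass the adjusted p threshold of 0.05. In the purple group Col8a2 and Col16a1, at 0.55 and 0.39, stand below the other 8, which lie between 1.15 and 1.78.

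Seen after their values were known, Col16a1 and Col8a2, the genes that did not pass, had the most GC-rich promoter windows of the 8 genes with one. The windows of 250 bases were 75.6% GC with 21 CpG dinucleotides for Col16a1 and 70% GC with 24 CpG for Col8a2. Those of Col6a1, Col6a3, Col6a5, Col6a6 and Col8a1 were 56% to 62.4% GC with 3 to 10 CpG, and the pair of alternative Col6a2 windows 59.2% and 64.4% GC with 6 and 14 CpG. Over all 32851 windows the medians were 52.4% GC and 6 CpG. Both sequences are shown for comparison with the 3 above, with motif matches in capitals.

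Col16a1 promoter, chr4:130047590-130047839, plus strand: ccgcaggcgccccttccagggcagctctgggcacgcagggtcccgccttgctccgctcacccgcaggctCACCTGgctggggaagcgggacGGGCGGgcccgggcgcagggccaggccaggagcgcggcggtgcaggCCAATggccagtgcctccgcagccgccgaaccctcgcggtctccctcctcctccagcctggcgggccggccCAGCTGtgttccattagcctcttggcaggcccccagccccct

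Col8a2 promoter, chr4:126286544-126286792, plus strand: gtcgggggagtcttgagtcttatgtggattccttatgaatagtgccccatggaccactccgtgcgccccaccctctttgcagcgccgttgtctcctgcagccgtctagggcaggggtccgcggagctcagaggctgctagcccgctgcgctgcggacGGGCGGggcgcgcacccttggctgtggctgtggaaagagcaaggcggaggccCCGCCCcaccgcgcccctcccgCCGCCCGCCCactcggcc

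Col16a1 carried 1 CCAAT box, 1 GC box and 2 E-boxes, and Col8a2 carried 4 GC boxes, some of them overlapping. With 8 genes this is a description of the windows, and its part in the difference was not tested.

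Whether pairs of genes changed by different amounts was examined with 10 log2 ratios per library and an exact two-sided permutation test, whose smallest possible p for 3 against 3 libraries is 0.1, so that none could pass. In 4 ratios the groups did not overlap, each at an exact permutation p = 0.1 (0.25 when adjusted over the 10 ratios). Col16a1 relative to Col12a1 fell by 1.36 on the log2 scale, from -0.78 ± 0.208 in NS to -2.14 ± 0.271 in HS (SD, n = 3). Col8a1 relative to Col8a2 went from 1.97 ± 0.162 in NS to 2.77 ± 0.289 in HS, a difference of 0.80. Col6a6 relative to Col6a3 fell by 0.45, from -4.89 ± 0.211 to -5.34 ± 0.0793. Col6a3 relative to the mean of Col6a1 and Col6a2 went from 0.40 ± 0.0842 to 0.56 ± 0.0636, a difference of 0.165. Its lowest HS value, 0.501, was barely above its highest NS value, 0.492.

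The other 6 ratios overlapped between the groups. Col6a2 relative to Col6a1 was almost the same in all libraries, between -0.30 and -0.20, with a difference of -0.02 between the groups (exact permutation p = 0.6). Col6a5 relative to Col6a3 differed by -0.04 (exact permutation p = 0.9), with SDs of 0.314 in HS and 0.419 in NS, and changed sign when HS replicate 1 (0.106) or NS replicate 2 (0.205) was left out. Against Col1a1, the main chain of the type I fibrils, Col12a1 differed by 0.38 (p = 0.2), Col6a3 by 0.19 (p = 0.3) and Col14a1 by 0.07 (p = 0.6, and -0.01 without NS replicate 2) in the same exact permutation test. Col12a1 relative to Col14a1 differed by 0.31 (exact permutation p = 0.3), with HS values from 0.57 to 1.25 and NS values from 0.43 to 0.78. An exact permutation p above the threshold does not show that the genes of a pair changed alike.

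**Figure D3:**
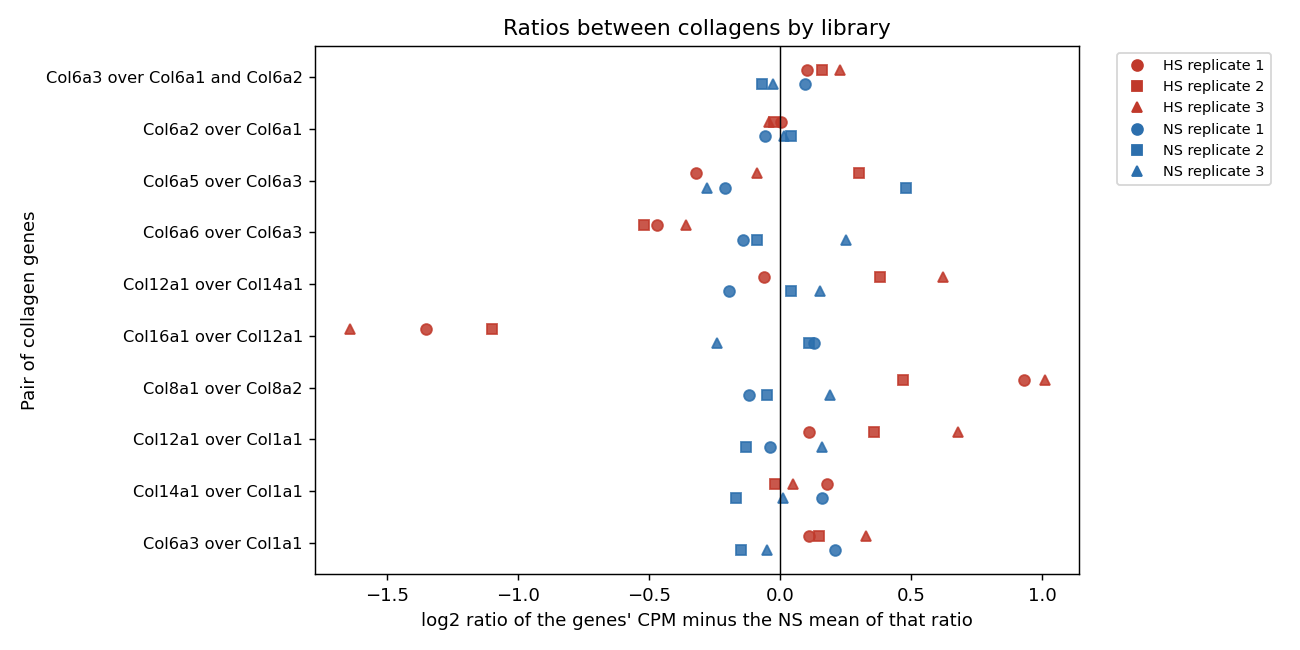
Log2 ratios of 10 pairs of collagens in each library, each drawn as its distance from the NS mean of that ratio. Col16a1 over Col12a1 lies furthest to the left in HS, Col8a1 over Col8a2 furthest to the right, and Col6a2 over Col6a1 stays within a narrow band in all 6 libraries.

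The 10 collagens together took 0.668%, 0.373% and 0.640% of all counts in HS replicates 1 to 3 and 0.189%, 0.222% and 0.221% in NS replicates 1 to 3. Of the counts of the 44 collagen genes in the table, they took 10.9%, 11.95% and 12.5% in HS and 13.1%, 12.4% and 12.6% in NS. The share in HS was 11.8% ± 0.829 against 12.7% ± 0.387 in NS (SD, n = 3), a difference of -0.92 percentage points (exact permutation p = 0.2) that ranged from -1.29 to -0.47 as single libraries were left out. Within the 10 genes, Col16a1 took 3.86% to 5.22% of the counts in HS and 8.49% to 9.61% in NS, whereas Col6a3 took 26.7% to 27.3% in HS and 23.9% to 26.4% in NS. Col12a1 took 16.8% to 21.6% in HS and 13.8% to 17.2% in NS, which overlapped. These shares depend on gene length as well as on transcript number.

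**Figure D4:**
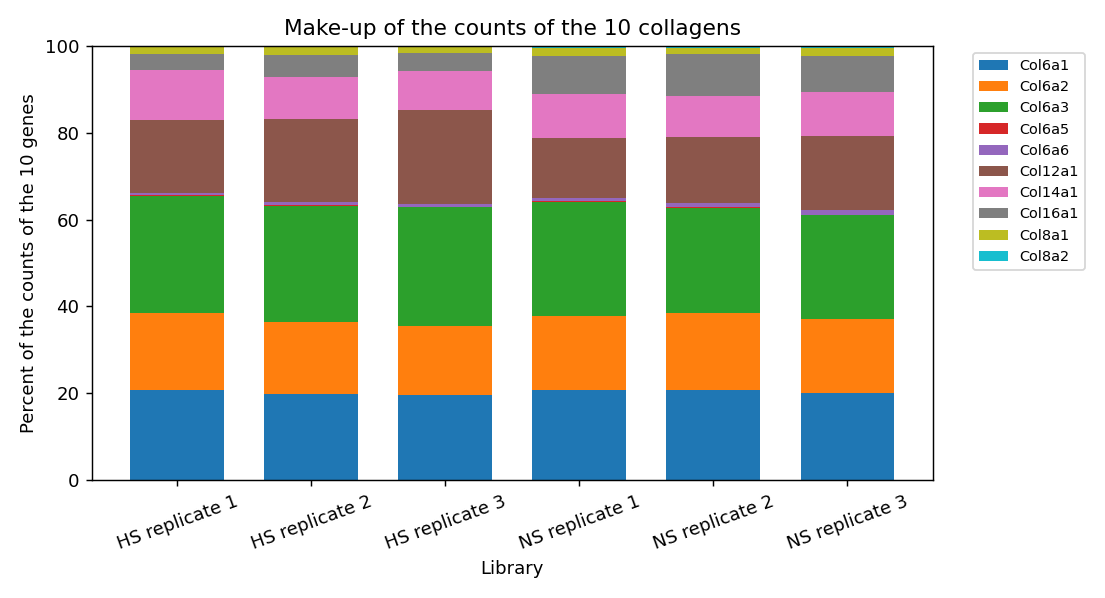
Share of each gene in the summed counts of the 10 collagens, in percent, for each library. Col16a1 is the segment that differs most between the groups, with no HS library above 5.22% and no NS library below 8.49%.

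Other collagens of the same families were scarce. Of 9 related collagens (Col6a4, the type IX chains, Col10a1, Col19a1, Col20a1, Col21a1 and Col22a1), 8 were matched in the table, 3 passed the filter on low counts, and edgeR called none; 2 of the 3 had an unadjusted p below 0.05, and DESeq2 and limma-voom called none. Their summed level was 6.73 to 11.8 CPM in HS and 7.88 to 11.96 CPM in NS. Col9a3, a chain of the cartilage collagen type IX, was at a log2 fold change of -0.89 (adjusted p = 0.146). Exons of Col6a4 and Col9a3 overlap genes on the opposite strand, so the low counts of both may include reads of those genes.

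Of the fibrillar collagens, 6 of 9 tested rose, none fell, and the median log2 fold change was 1.503. Col1a1 stood at 10571, 5419 and 8529 CPM in HS and at 2504, 3523 and 3277 CPM in NS (log2 fold change 1.40 ± 0.248, SE, edgeR adjusted p = 0.0182). Col3a1, the type III chain abundant in young scars, rose 4.05-fold (adjusted p = 0.0126), and Col1a2, Col5a2 and Col5a1 rose 2.70-fold, 3.86-fold and 4.24-fold (adjusted p = 0.0133, adjusted p = 0.0156 and adjusted p = 0.0178). A microRNA gene shares 141 bp of exon with Col3a1 on its own strand, and exons of Col5a1 overlap a pair of transcripts on the opposite strand. Libraries whose absence ended the calls of the 10 collagens ended these too, with 0 of 9 called by edgeR without HS replicate 3 or any 1 NS library and 7 of 9 at an unadjusted p below 0.05 in each case.

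Among receptors for these collagens, 5 of 10 rose and 2 fell, with a median log2 fold change of 0.78. Itgb1, the beta chain shared by the collagen-binding integrins, rose 1.89-fold (adjusted p = 0.0116), and Itga11, an integrin alpha chain of fibroblasts, rose 2.74-fold, from 20.3, 20.3 and 20.8 CPM in NS to 67.1, 35.9 and 65.2 CPM in HS (adjusted p = 0.0137). Antxr1, an anthrax toxin receptor that binds type VI collagen and its endotrophin fragment, stood at 472, 235 and 375 CPM in HS and at 117, 135 and 141 CPM in NS. Its groups did not overlap, and it rose 2.76-fold (log2 fold change 1.46 ± 0.242, SE, edgeR adjusted p = 0.0201). The discoidin domain receptor Ddr1, expressed mostly by epithelia, fell by 0.50 on the log2 scale (adjusted p = 0.0153). The other receptor that fell was Cspg4, at a log2 fold change of -0.44 (edgeR adjusted p = 0.0404). Exons of Antxr1 and Ddr1 overlap genes on the opposite strand. Without HS replicate 3, 1 of the 10 receptors was called, and without any 1 NS library none was, while 9 had an unadjusted p below 0.05 in edgeR.

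Matrix proteins known to bind these collagens rose in 6 of 12 cases, none fell, and the median log2 fold change was 0.92. The keratan sulphate proteoglycan Lum rose 3.47-fold (adjusted p = 0.00994), and Tnc, the wound matrix glycoprotein tenascin C, rose 5.82-fold (adjusted p = 0.0153). Matn2, a matrilin that bridges type VI filaments to other matrix, rose 1.87-fold (adjusted p = 0.0170), and Bgn, a proteoglycan that organises type VI networks, rose 2.10-fold (adjusted p = 0.0240). Dcn, which encodes decorin and also binds type VI and type XIV collagen, was at 2180, 1259 and 1790 CPM in HS and at 898, 925 and 1028 CPM in NS, a 1.83-fold rise (adjusted p = 0.0276). Exons of Tnc and Matn2 overlap genes on the opposite strand. Without HS replicate 3, 2 of the 12 were called, and without any 1 NS library edgeR called none, with 7 at an unadjusted p below 0.05.

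Genes of collagen folding and processing rose in 8 of 14 cases and fell in none, and their median was 1.02 on the log2 scale. Serpinh1, the collagen chaperone HSP47, rose 2.62-fold (adjusted p = 0.00619), and the lysyl hydroxylase Plod2 rose 2.78-fold (adjusted p = 0.0202). The prolyl hydroxylase subunit P4ha3 rose 7.91-fold (adjusted p = 0.0143, and 0.0549 with limma-voom), and the prolyl hydroxylase listed as Lepre1 (P3h1) rose 2.61-fold (adjusted p = 0.0203). Exons of Plod2 overlap a gene on the opposite strand. DESeq2 called all 14, as edgeR did without HS replicate 2; 1 was called without HS replicate 3 and 1 without NS replicate 1, and none without NS replicate 2 or NS replicate 3, where all 14 had an unadjusted p below 0.05.

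Across 10197 genes with a mean of at least 10 CPM, the log2 CPM profile over the 6 libraries nearest to the mean profile of Col6a1, Col6a2 and Col6a3, apart from the 10 collagens, was that of Grb10, an adaptor protein of growth factor receptors. Likeness was measured as the root mean square distance between profiles centred on their own means, which was 0.0541 log2 units for Grb10. The next were Antxr1 (0.0559), Pxdn, a matrix peroxidase that cross-links type IV collagen (0.0579), Col1a2 (0.0664) and the endothelial cadherin Cdh5 (0.0681). Among the 10 collagens, Col14a1 was at 0.0830, Col8a1 at 0.139, Col6a6 at 0.215 and Col12a1 at 0.225, whereas Col8a2 and Col16a1 were at 0.512 and 0.552. Counting from the nearest of all 10197 genes, Col14a1, Col8a1, Col6a6 and Col12a1 ranked 13, 63, 146 and 157. Col8a2 ranked 932, and Col16a1 lay further still. Col6a5 was below the limit of 10 CPM and was not ranked.

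Some markers of several cell types rose as these collagens did. Lum, Dcn and Cdh5 are among those that rose, while Cspg4 fell, and all of these are also named or counted above. Of 12 fibroblast markers, 6 rose and none fell, and their summed level was 3413 to 6253 CPM in HS and 2211 to 2555 CPM in NS. Lum, Dpt and Mfap5 rose by 3.47-fold, 2.59-fold and 5.26-fold, whereas Pdgfra (log2 fold change 0.66, adjusted p = 0.0764) and Dpp4 (-0.04, adjusted p = 0.923) were not called. Of 8 endothelial markers 6 rose and none fell, with sums of 301 to 508 CPM in HS and 178 to 183 CPM in NS. Among 8 markers of pericytes and vessel smooth muscle 3 rose and 1 fell (568 to 811 against 421 to 465 CPM). Of 7 tested macrophage markers 1 rose (952 to 2609 against 665 to 828 CPM), and of 6 tested neutrophil markers 4 rose (112 to 383 against 16.5 to 23.8 CPM). The neutrophil sum in HS was mostly S100a8 and S100a9, with HS means of 83.0 and 105 CPM. Cxcr2 and Mmp8 were not called (edgeR adjusted p = 0.110 and 0.117). Ly6g and Csf3r, at most 0.489 and 1.58 CPM in any library, did not pass the filter on low counts. HS replicate 2 had the lowest HS sum in each of these 5 lists, and also in the adipocyte list below, where no marker was called. In bulk tissue, more cells of a type and more RNA per cell cannot be told apart, and the part of these cells in the rise of the collagens was not tested.

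In the lists of other tissues, the summed level overlapped between the groups or was lower in HS. Of 8 epidermal markers 2 fell, with sums of 14965 to 24326 CPM in HS and 22428 to 30984 CPM in NS, and of 8 hair follicle markers 4 fell (15026 to 18478 against 21296 to 24800.1 CPM). Of 8 skeletal muscle markers 1 rose, the fast myosin Myh4 (9.36-fold, adjusted p = 0.00461), with sums of 5110 to 10252 CPM in HS and 4726 to 5932 CPM in NS. In the adipocyte and Schwann cell lists, with 8 markers each, edgeR called none, and their sums overlapped (934 to 1713 against 985 to 1101 CPM, and 198 to 300 against 191 to 202 CPM). The cartilage and tendon list, which covers tissues that also make type VI, XII and XIV collagen, had none of 6 tested markers called and sums of 113 to 154 CPM in HS, below the 168 to 184 CPM in NS. The cartilage genes Col2a1 and Matn1 were near 0, at most 0.320 CPM in any library.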

How the data were processed

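RNA sequencing libraries of 3 hypertrophic and 3 normal mouse scars were compared. Per the labels' protocols, ribosomal RNA was removed from total RNA and libraries were read as 150 bp paired ends. The authors' deposited table gave raw counts per gene, not normalized, for 17572 protein-coding genes, per the file headers. The submitters' processing notes name cutadapt 1.9.3, HISAT2 2.0.4, HTSeq 0.9.1, edgeR and build mm10; the sources used here give neither their settings nor the use of strand. The 6 columns of normalized values were not used. The fit used edgeR 4.0.16 in R 4.3.3: filterByExpr (minimum count 10) kept 14513 genes, libraries were scaled by TMM (factors 0.955 to 1.033), and glmQLFit and glmQLFTest with the robust step had the group as the only term. A standard error is the log2 fold change divided by the root of the test's F. CPM and CPM per kb use the TMM-scaled totals, and 1 count was worth at most 0.0491 CPM of an unscaled total. The procedure was also run on simulated counts with known changes, drawn separately for each gene and with no shift of a whole library. That run cannot show how the calls behave when 1 library stands apart, as HS replicate 2 did.

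Alternatives were other size factors or none, other filters, DESeq2 1.42.0, limma-voom (limma 3.58.1), no robust step, the replicate number as a block, and each library left out. No pair of libraries was a copy, since the chi-square per gene within groups was 14.2 to 106.8. Ratios used log2 CPM, with 0.1 CPM added where Col6a5 or Col6a6 was involved. Coordinates, 1-based on GRCm38 (mm10), and exon lengths are from GENCODE M21, which matched 17398 of the gene identifiers; of 64 collagen and pathway genes placed, 24 had an exon overlapping another gene. RefSeq promoter windows (GRCm38.p6) were found for 8 of the 10 genes, not for Col12a1 and Col14a1. List symbols were matched to the table by name, and P3h1 and Adgre1 by identifier; Col21a1 and Bmp1 were not analysed here. Named genes were the 10 collagens, Col1a1, Col3a1, Dcn and Antxr1, up to 4 called genes of each pathway list by smallest p, and the 5 genes most alike in profile; called genes of the pathway lists beyond these are counted only, while the marker genes and the neighbours Lss, Pcbp3, Pik3r4 and Glyctk were named after their values were seen. The members and lists were chosen with earlier results of these data known.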

Additional observations from a re-analysis of the deposited data

How the results depend on the processing

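The count of called genes was 1284, and 2435 with DESeq2. It ranged from 25 to 3257 as single libraries were left out. The number of the 10 collagens called ranged from 0 to 9 in those fits, with 9 or 10 of the 10 at an unadjusted edgeR p below 0.05, and was 7 to 9 in the 8 alternatives with all libraries. All 10 log2 fold changes were above 0 in each alternative. The number of collagens without overlap was 9 or 10. With all libraries, 17.2% of all tested genes had HS above NS without overlap. That share was not computed with single libraries left out, where fewer values make separation easier for every gene. Leaving out single libraries moved the called genes of the pathway lists from 0 to 1 (related collagens, 2 at an unadjusted p below 0.05 with all libraries), 0 to 7 (fibrillar collagens), 0 to 9 (receptors), 0 to 9 (binding partners) and 0 to 14 (folding and processing, 8 in the main test, 14 with DESeq2). The log2 difference in Col6a5 over Col6a3 ranged from -0.205 to 0.205 (0.106 without HS replicate 1) and that in Col14a1 over Col1a1 from -0.0127 to 0.149. The log2 fold change of Col20a1, 0.09 with all libraries, ranged from -0.0486 without NS replicate 3 to 0.29, and was -0.0014 without HS replicate 3. Over 58 single genes and the 8 alternatives with all libraries, 441 of 462 results kept their direction and side of the threshold, 7 lost their call and 14 gained one; the causes were not tested.

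The labels do not say whether the replicate numbers pair the libraries. Deviations of same-numbered libraries correlated at 0.0109, 0.00809 and 0.0335 over genes. Not every library correlated most with its own number (HS replicate 1 with NS replicate 2, 0.0185). With 3 libraries a group, these values cannot settle whether the libraries are paired. With the replicate number as a block, 1001 genes (6.90%) and 8 of the 10 collagens were called, as were 6 of 10 receptors, 5 of 12 binding partners and 7 of 14 processing genes, 1 fewer in each of these lists than without it. Among the binding partners, Bgn lost its call. Of the related collagens, 3 of 8 passed the filter on low counts, and without the filter edgeR called none of the 8, with 2 at an unadjusted p below 0.05. With 3 libraries a group, most calls were lost when HS replicate 3 or any 1 NS library was left out.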
